A study of Mus musculus with 20 samples.

Results

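Day 10 mouse neurons exposed to NMDA were compared with neurons exposed to DMSO alone by RNA-seq, which counts the reads from each gene's transcripts. The genes described are those with a mean of at least 10 normalised read counts over the 4 RNA libraries, which were 13888 of 21937 gene symbols. Of the other 8049 symbols, 3939 had 0 in all 4 libraries. The NMDA group was neurons in culture (strain label 159.2) at day 10 of differentiation, given 200 µM NMDA for 6 h. The DMSO group was neurons of the same label and day, given DMSO alone for 6 h. Each group had 2 libraries, among 20 samples in the series, whose chromatin data were not used here. Whether the 2 libraries of one group were grown as separate cultures is not stated in the labels, and the p-values then reflect only the spread between 2 libraries, which may be technical.

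NMDA is a synthetic agonist of one class of glutamate receptor, a channel that opens when glutamate and a co-agonist bind and the membrane is depolarised, and that lets calcium in. Calcium then acts through calmodulin-dependent kinases, calcineurin and the MAP kinase cascade on transcription factors that are already present, such as CREB, SRF and MEF2. These switch on immediate early genes, many of which encode transcription factors themselves, and later genes that change synapses and excitability. Strong or lasting activation of the receptor is known to injure neurons.

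The NMDA libraries held 20.1 M and 16.8 M reads (M stands for 1e+06) and the DMSO libraries 20.1 M and 15.0 M, as recovered from the deposited values. All 15 pan-neuronal markers were above the minimum in both groups, and their summed level was 1.06% and 0.935% of all normalised counts in the NMDA libraries, against 1.10% and 1.15% in the DMSO libraries. Genes of fibroblasts and mesenchyme were also abundant in both groups: 9 such markers summed to 1.15% and 1.57% in the NMDA libraries, against 0.613% and 0.564% in the DMSO libraries, and 8 of the 9 rose. All 8 neural progenitor markers rose, with sums of 0.129% and 0.175% in the NMDA libraries, against 0.0693% and 0.0840% in the DMSO libraries, and so did 4 of 6 tested astrocyte markers, with sums of 0.0781% and 0.112% in the NMDA libraries, against 0.0550% and 0.0645% in the DMSO libraries. With DMSO replicate 1 left out, 4 of these progenitor markers and 1 of these astrocyte markers were called. The 5 microglia markers stayed under the minimum of 10, with a highest single value of 5.27 in any library. Of 5 endothelial markers 4 were tested, with 1 rise and 0 falls, while Cldn5 was at 0 in all 4 libraries. The endothelial sums were 0.00247% and 0.00311% in the NMDA libraries, against 0.00175% and 0.00164% in the DMSO libraries. In bulk RNA, fewer cells of a type and less RNA per cell cannot be told apart. The part of these markers in the results below was not tested.

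At an adjusted p under 0.05 by limma, 2845 genes rose after NMDA (20.5% of those tested) and 2979 fell (21.5%), which together is 41.9% of those tested. The median change of all tested genes was -0.01 on the log2 scale. At least 2-fold, 495 rose (3.56%) and 209 fell (1.50%), while quantile normalisation gave 323 rises and 294 falls of that size. Called rises had a median of 0.69 on the log2 scale and called falls of -0.50, so a typical called change was well under 2-fold. The groups did not overlap in 10341 genes (74.5%). Fewer genes were called when either DMSO library was left out. In those fits the spread within groups came from the 2 NMDA libraries alone. The number of calls then reflects that spread as well as the size of the changes. Without NMDA replicate 1 there were 956 rises and 314 falls of at least 2-fold, and without NMDA replicate 2 there were 247 rises of that size. Without DMSO replicate 1 there were 135 falls of at least 2-fold. A set of 893 rises and 844 falls kept its call whichever library was left out. The 2 NMDA libraries differed from each other by a median of 0.15 in absolute log2, and the DMSO libraries by 0.11.

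Rises and falls lay at different levels of expression, shown here in 5 bins of equal size by mean. In the bin with the lowest means, 10.0 to 89.6 normalised counts, 13.5% rose and 5.40% fell. In the next, up to 299.8, 27.3% rose and 13.9% fell. In the middle bin, up to 679, the shares were 25.3% and 21.99%. They were 18.8% and 31.3% in the next, up to 1613, and 17.5% and 34.6% in the highest, up to 103091. The median log2 change went down the same series, with 0.19 in the lowest bin, then 0.10, 0.003 and -0.08, and -0.12 in the highest. These counts are not corrected for gene length, so the bins order reads and not transcripts.

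**Figure D1:**
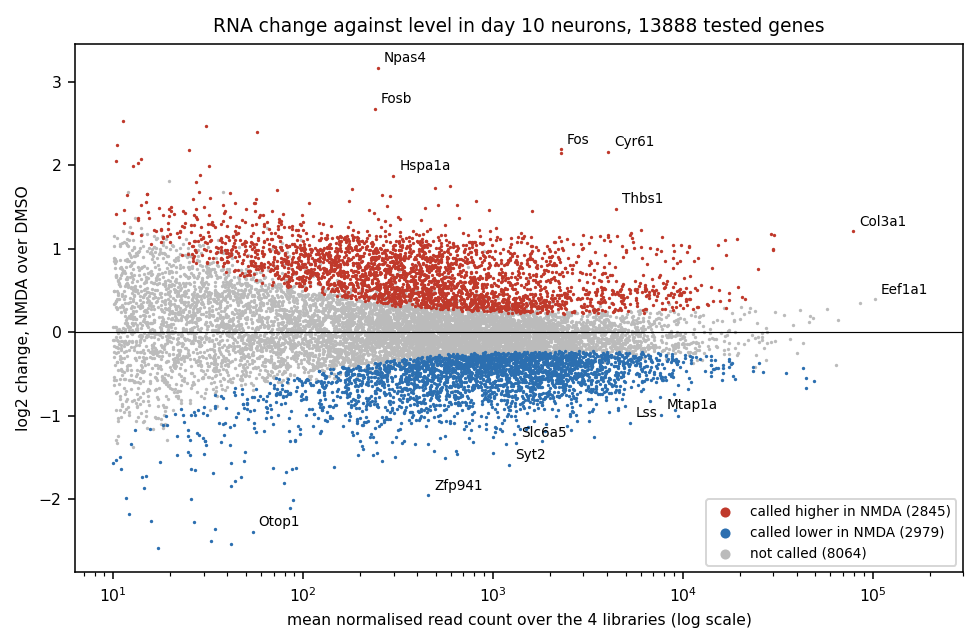
Log2 change after NMDA (NMDA over DMSO, y axis) against the mean normalised read count over the 4 libraries (x axis, log scale), 1 point for each of the 13888 tested genes, red for the 2845 called higher in NMDA, blue for the 2979 called lower and grey for the rest. The largest changes reach 3.17 and -2.59, and called falls are most frequent at the right, with 34.6% of the genes in the highest of the 5 bins.

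The largest rises included regulators of transcription, and the largest falls genes of the membrane, the matrix and the nucleus. Npas4, a transcription factor that neurons make after calcium entry, had 404 and 493 normalised counts in NMDA libraries, against 44.0 and 53.9 in DMSO libraries (log2 change 3.17 ± 0.17, SE; limma adjusted p = 0.000565). Fosb, a partner of Jun proteins in AP-1, had 343 and 489.9 in NMDA libraries, against 53.9 and 74.2 in DMSO libraries (2.68 ± 0.22, adjusted p = 0.000565). In both genes the NMDA libraries lay several times above the DMSO libraries. Ptgs2, the inducible cyclooxygenase, had 49.2 and 149 in NMDA libraries, against 15.3 and 15.6 in DMSO libraries (2.40 ± 0.46, adjusted p = 0.00426), so its NMDA libraries were far apart although neither overlapped DMSO. Otop1, a proton channel gene, had 17.6 and 15.7 in NMDA libraries, against 88.0 and 95.8 in DMSO libraries (-2.40 ± 0.24, adjusted p = 0.000703). Col10a1, a collagen of hypertrophic cartilage, had 29.9 and 32.5 in NMDA libraries, against 112 and 169 in DMSO libraries (-2.11 ± 0.24, adjusted p = 0.000802). The zinc finger gene Zfp39 had 44.8 and 26.2 in NMDA libraries, against 159 and 126 in DMSO libraries (-2.01 ± 0.28, adjusted p = 0.00129). In these 3 genes both NMDA libraries were under both DMSO libraries.

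The promoters of these 6 genes, the 3 largest rises and the 3 largest falls with an entry and a mean of 50 or more, are shown because the activity-dependent factors above act on such sequences. Each is the 250 bases before the annotated start, 5′ to 3′ on the gene's own strand, from RefSeq on GRCm38.p6, in lower case. Capitals mark TGACG on either strand, the core of the cyclic AMP response element (CRE), a motif added after the promoters were seen. The sequences are given as chr19:4989972-4990221 (minus strand) for Npas4, chr7:19310046-19310295 (minus) for Fosb, chr1:150099781-150100030 (plus) for Ptgs2, chr5:38277154-38277403 (plus) for Otop1, chr10:34389731-34389980 (plus) for Col10a1 and chr11:58904226-58904475 (minus) for Zfp39.
Npas4: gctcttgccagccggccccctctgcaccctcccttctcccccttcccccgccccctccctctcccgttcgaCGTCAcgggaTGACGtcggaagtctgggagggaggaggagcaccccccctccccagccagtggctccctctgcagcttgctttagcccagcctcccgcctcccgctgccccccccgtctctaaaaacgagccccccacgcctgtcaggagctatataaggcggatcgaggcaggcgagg
Fosb: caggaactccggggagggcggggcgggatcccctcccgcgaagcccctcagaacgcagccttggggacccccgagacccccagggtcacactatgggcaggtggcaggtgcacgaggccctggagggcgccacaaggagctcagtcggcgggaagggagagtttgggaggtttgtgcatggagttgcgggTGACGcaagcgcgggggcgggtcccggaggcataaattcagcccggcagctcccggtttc
Ptgs2: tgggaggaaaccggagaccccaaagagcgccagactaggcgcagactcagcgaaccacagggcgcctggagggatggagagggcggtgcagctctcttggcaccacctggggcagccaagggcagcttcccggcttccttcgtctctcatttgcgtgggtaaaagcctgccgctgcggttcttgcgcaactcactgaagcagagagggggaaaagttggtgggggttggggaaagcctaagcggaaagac
Otop1: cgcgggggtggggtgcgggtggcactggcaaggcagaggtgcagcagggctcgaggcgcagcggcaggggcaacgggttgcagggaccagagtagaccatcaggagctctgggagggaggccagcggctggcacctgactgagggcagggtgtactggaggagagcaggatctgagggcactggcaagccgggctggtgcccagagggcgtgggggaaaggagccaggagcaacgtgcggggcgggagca
Col10a1: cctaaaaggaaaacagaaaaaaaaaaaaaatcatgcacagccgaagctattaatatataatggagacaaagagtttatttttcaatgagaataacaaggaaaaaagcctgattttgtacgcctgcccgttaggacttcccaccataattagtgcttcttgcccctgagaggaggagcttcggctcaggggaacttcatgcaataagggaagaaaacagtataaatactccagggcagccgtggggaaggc
Zfp39: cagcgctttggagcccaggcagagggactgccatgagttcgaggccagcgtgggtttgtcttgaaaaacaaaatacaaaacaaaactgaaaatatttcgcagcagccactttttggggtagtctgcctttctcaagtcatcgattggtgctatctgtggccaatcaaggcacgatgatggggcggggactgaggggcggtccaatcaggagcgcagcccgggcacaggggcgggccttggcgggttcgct
Npas4 has 2 of these cores, at -179 to -175 on the minus strand and at -169 to -165 on the plus strand, counted from the start of the gene, and Fosb has 1, at -60 to -56 on the plus strand. The other 4 sequences hold none.

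The 6 motifs below were counted on both strands in these windows, over the 10784 tested genes with a promoter entry and over all 27025 promoters of the table. None of the 6 printed promoters holds any of them. The full CRE, TGACGTCA, was in 1.64% of promoters of genes that rose by at least 2-fold, in 1.24% of those that fell by at least 2-fold, in 2.79% of other tested genes and in 1.62% of all promoters. The AP-1 site, TGANTCA, was in 6.30%, 5.59%, 3.80% and 6.87% of the same sets. The CArG box, which SRF binds, was in 2.19%, 1.24%, 1.11% and 1.40%, and the Egr site, GCGTGGGCG, in 0.548%, 0%, 1.11% and 0.540%. A core of the heat shock element, GAANNTTC, was in 5.48%, 4.97%, 4.78% and 6.78%, and the antioxidant response core, TGACNNNGC, in 15.9%, 8.08%, 11.9% and 10.2%. The core TGACG, which the full CRE also contains, was in 22.2%, 21.7%, 27.2% and 17.9%. Median GC content was 60.4% for the 2-fold rises, 56.4% for the 2-fold falls, 60.4% for other tested genes and 52% over the table. These shares describe letters in a 250-base window and were not tested.

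Other genes among the 25 largest rises encode proteins of several kinds. S1pr1, a receptor for the lipid sphingosine-1-phosphate, had 273 and 521 in NMDA libraries, against 97.9 and 146 in DMSO libraries (1.65 ± 0.29). Epha2, an ephrin receptor, had 319 and 554 in NMDA libraries, against 115 and 158 in DMSO libraries (1.63 ± 0.25). Cdkn2b, an inhibitor of the kinases that drive cells out of G1, had 187 and 339.9 in NMDA libraries, against 75.4 and 93.4 in DMSO libraries (1.58 ± 0.26). Adamts1, a secreted protease that cuts proteoglycans, had 869 and 1599 in NMDA libraries, against 350.1 and 449 in DMSO libraries (1.57 ± 0.25). Cxcr4, the receptor of the chemokine Cxcl12, had 931 and 993 in NMDA libraries, against 375 and 296 in DMSO libraries (1.53 ± 0.13), and Lats2, a kinase of the Hippo pathway, had 596 and 945 in NMDA libraries, against 236 and 287 in DMSO libraries (1.52 ± 0.20). In each of these 6 genes both NMDA libraries were above both DMSO libraries, which was a condition for naming them. Their limma adjusted p values, under 0.05 by the same rule, ran from 0.000565 to 0.00326.

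Other genes with large falls also encode proteins of several kinds. Zfp941, a zinc finger gene, had 221 and 156 in NMDA libraries, against 748 and 701 in DMSO libraries (-1.95 ± 0.16). Neu3, a sialidase of gangliosides, had 66.7 and 75.5 in NMDA libraries, against 221 and 217 in DMSO libraries (-1.61 ± 0.16). Fastkd3, a regulator of mitochondrial RNA, had 148 and 169.9 in NMDA libraries, against 437 and 465 in DMSO libraries (-1.50 ± 0.13). Alk, a receptor tyrosine kinase of developing neurons, had 354 and 330.4 in NMDA libraries, against 1015 and 875 in DMSO libraries (-1.46 ± 0.11). Lynx1, a brake on nicotinic acetylcholine receptors, had 304 and 233 in NMDA libraries, against 690.4 and 742 in DMSO libraries (-1.43 ± 0.14). Slc6a5, the neuronal glycine transporter and a mark of glycinergic neurons, had 982 and 562 in NMDA libraries, against 2023 and 1710.0 in DMSO libraries (-1.32 ± 0.22). Rps6ka5, which encodes the kinase MSK1 that acts on CREB and on histone H3, had 189.6 and 187 in NMDA libraries, against 509.9 and 442 in DMSO libraries (-1.33 ± 0.12). Both NMDA libraries were under both DMSO libraries in all 7, as the rule for naming the largest changes required. Limma adjusted p values ran from 0.000565 to 0.00248.

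**Figure D2:**
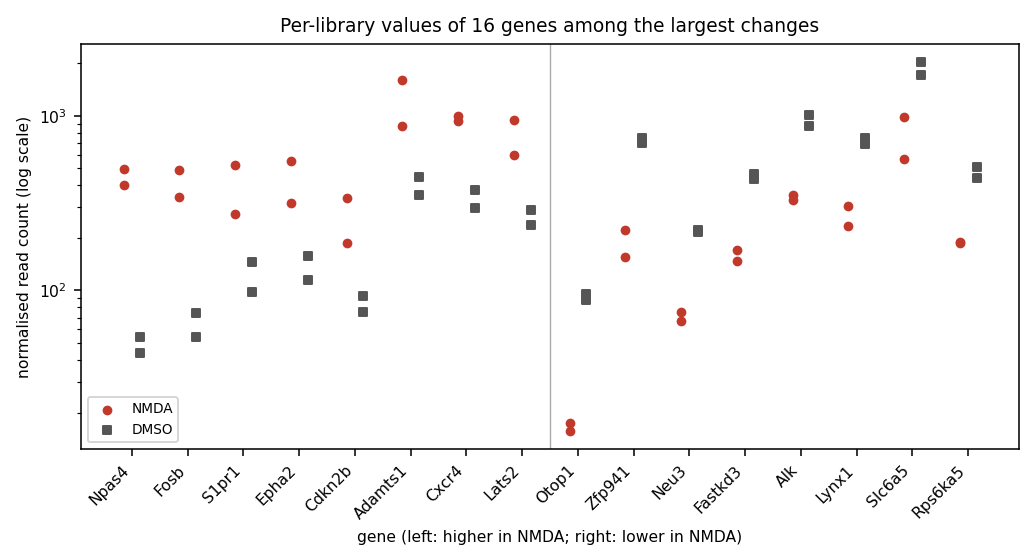
Normalised read counts (y axis, log scale) of 16 genes among the largest changes, 8 that rose on the left and 8 that fell on the right, with the 2 NMDA libraries as red circles beside the 2 DMSO libraries as grey squares. In every gene shown the circles and squares do not overlap, which was a condition for being picked. Npas4 (404 and 493 in NMDA, against 44.0 and 53.9 in DMSO) shows the widest gap.

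At means of 1000 or more, the largest rises included Fos, Cyr61 and Ctgf and also genes of the matrix. Thbs1, a matricellular thrombospondin, had 5641 and 7466 in NMDA libraries, against 2577 and 2109 in DMSO libraries (1.48 ± 0.14). Zfp36l1, which binds AU-rich mRNAs and speeds their decay, had 1688 and 3090.2 in NMDA libraries, against 759.5 and 907 in DMSO libraries (1.46 ± 0.23), and Dlk1, a non-canonical Notch ligand, had 8267 and 8550.0 in NMDA libraries, against 4039.9 and 3216 in DMSO libraries (1.22 ± 0.11). Fbn2, a fibrillin of elastic fibres, had 3811 and 4472 in NMDA libraries, against 2059 and 1643 in DMSO libraries (1.17 ± 0.12), and Nid2, which links basement membrane proteins, had 5146 and 6083 in NMDA libraries, against 2635 and 2344 in DMSO libraries (1.17 ± 0.11). The largest falls at this level included a neuronal receptor, an adhesion gene and a signalling gene. Oprl1, the nociceptin receptor, had 869 and 686 in NMDA libraries, against 1929 and 1681 in DMSO libraries (-1.22 ± 0.13). Pcdh9, a protocadherin, had 2215 and 1830.4 in NMDA libraries, against 5010.4 and 4596 in DMSO libraries (-1.25 ± 0.11), and Sh2d3c, an adaptor protein gene, had 1217 and 881 in NMDA libraries, against 2748 and 2382 in DMSO libraries (-1.30 ± 0.15). The groups did not overlap in any of these genes, which was a condition for naming them. The largest of their limma adjusted p values was 0.0022.

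At the receptor itself, 4 of 6 tested NMDA receptor subunits fell and none rose, with a median log2 change of -0.56. Grin3a, a subunit that lowers calcium flux, had 394 and 370.3 in NMDA libraries, against 741 and 713 in DMSO libraries (-0.93 ± 0.10, adjusted p = 0.000714). Grin2b, a glutamate-binding subunit of young neurons, had 266 and 256 in NMDA libraries, against 426 and 406 in DMSO libraries (-0.67 ± 0.11, adjusted p = 0.00241). In both subunits the lowest value was that of NMDA replicate 2. Of the calcium kinases and calcineurin genes downstream, 10 of 20 fell and none rose (median -0.23). The falls were 66.7% of the receptor subunits and 50% of the kinase and calcineurin genes, beside 21.5% of all tested genes. Camk1d had 539.9 and 619.9 in NMDA libraries, against 1109.6 and 1211 in DMSO libraries (-1.001 ± 0.10) and Camkk1, a kinase that activates other CaM kinases, 622 and 574 in NMDA libraries, against 979 and 912 in DMSO libraries (-0.66 ± 0.09). Camk4, a nuclear kinase that phosphorylates CREB, had 1851 and 1755 in NMDA libraries, against 2641 and 2509 in DMSO libraries (-0.51 ± 0.08) and Camk2g 3749.5 and 3544 in NMDA libraries, against 5094 and 5309 in DMSO libraries (-0.51 ± 0.08). All 4 kinase genes were lower in both NMDA libraries, with adjusted p values up to 0.00215. With DMSO replicate 1 left out, there were 2 falls among the receptor subunits and 4 among the kinase genes, with the same numbers without DMSO replicate 2, and without NMDA replicate 2 the kinase genes had 6.

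The transcription factors that calcium acts on, and their partners, moved both ways: 7 of 22 CREB, SRF and MEF2 regulators rose and 7 fell (median 0.07). That is 31.8% each way, beside 20.5% of all tested genes that rose and 21.5% that fell. Srf had 572 and 584 in NMDA libraries, against 347 and 349.7 in DMSO libraries (0.73 ± 0.10), and its partner Elk3 had 184 and 188 in NMDA libraries, against 107 and 99.4 in DMSO libraries (0.85 ± 0.15). Mkl1, the actin-sensing coactivator of SRF, had 715 and 732 in NMDA libraries, against 1165 and 1126 in DMSO libraries (-0.66 ± 0.08), so the factor and this coactivator moved in opposite directions. Atf1, a close relative of CREB, had 283 and 305 in NMDA libraries, against 189 and 166 in DMSO libraries (0.72 ± 0.13). Crebbp, the acetyltransferase that CREB recruits, had 1270.3 and 1282 in NMDA libraries, against 2349 and 2223 in DMSO libraries (-0.84 ± 0.08), and Crtc1, a calcineurin-dependent coactivator of CREB, had 1445 and 1291 in NMDA libraries, against 2036 and 1938 in DMSO libraries (-0.54 ± 0.09). Both NMDA libraries lay on the same side of both DMSO libraries for each of these genes, and their adjusted p values were 0.00372 or less. When DMSO replicate 1 was left out, there were 4 rises and 3 falls in the list.

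Most AP-1 factors and most Egr, Nr4a and Nab genes rose. Of 11 AP-1 factors 7 rose and 1 fell (median 1.22), and of 8 Egr, Nr4a and Nab genes 7 rose (median 1.01). Fosl2 had 499 and 806 in NMDA libraries, against 206 and 243 in DMSO libraries (1.50 ± 0.21) and Mafk, a small Maf protein gene, 460.0 and 610.5 in NMDA libraries, against 212 and 244 in DMSO libraries (1.22 ± 0.15). Nr4a1, an orphan nuclear receptor, had 708 and 1137 in NMDA libraries, against 239 and 293 in DMSO libraries (1.76 ± 0.20). Of 15 Kruppel-like factors 7 rose and 1 fell (median 0.57). Klf2 had 38.6 and 49.3 in NMDA libraries, against 12.6 and 13.2 in DMSO libraries (1.69 ± 0.30), Klf13 had 400.3 and 497 in NMDA libraries, against 194 and 206 in DMSO libraries (1.15 ± 0.14) and Klf6 had 2852 and 3689 in NMDA libraries, against 2008 and 1957 in DMSO libraries (0.71 ± 0.12), with NMDA libraries above DMSO libraries in each. Klf12, a repressor, had 501 and 522 in NMDA libraries, against 826 and 762 in DMSO libraries (-0.63 ± 0.10), the one fall of the family. Among 27 genes with a Dusp, Spry or Spred symbol, 7 rose (25.9%) and 2 fell (7.41%), with a median of 0.28. Of all tested genes 20.5% rose and 21.5% fell. Many of these 27 damp MAP kinase signalling, and they are called MAP kinase genes below, although the symbols cover other phosphatases too. Spry1, an inhibitor of receptor tyrosine kinase signalling, had 323 and 399.6 in NMDA libraries, against 215 and 198 in DMSO libraries (0.80 ± 0.14) and Dusp1, a MAP kinase phosphatase, 451 and 484 in NMDA libraries, against 308 and 244 in DMSO libraries (0.77 ± 0.14), whereas Dusp8, a phosphatase of JNK and p38 kinases, had 1885 and 1438 in NMDA libraries, against 2917 and 2675 in DMSO libraries (-0.76 ± 0.13). Adjusted p values of the genes named here were at most 0.00349. Leaving out DMSO replicate 1, there were 2 rises among the Egr group, 3 among the Kruppel-like factors and 2 among the MAP kinase genes, and without DMSO replicate 2 the last 2 lists had 4 each, with 1 fall among the MAP kinase genes. With NMDA replicate 1 left out, the MAP kinase genes had 4 falls and the AP-1 factors none, without either DMSO library the AP-1 factors had none either, and without NMDA replicate 2 the MAP kinase genes had 4 rises and 3 falls. Quantile normalisation gave 4 rises and 4 falls of MAP kinase genes and no fall of an AP-1 factor, DESeq2 gave 4 rises of MAP kinase genes, and 4 of the Egr group rose when the minimum mean was 50.

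Genes of the cytosolic ribosome rose together. Of 75 tested subunits 70 rose and none fell, with a median log2 change of 0.50 and a range from 0.04 to 0.69, beside 20.5% of all tested genes that rose. Their summed level was 3.22% and 3.83% of all normalised counts in the NMDA libraries, against 2.36% and 2.57% in the DMSO libraries. Rpl37 had 4165 and 4631 in NMDA libraries, against 3023 and 2981 in DMSO libraries (0.55 ± 0.09, adjusted p = 0.00199), and Rps20 had 6921 and 8408 in NMDA libraries, against 4525 and 4923 in DMSO libraries (0.69 ± 0.11, adjusted p = 0.00206). The 2 NMDA libraries stood above the 2 DMSO libraries in 73 of the 75 subunits, beside 36.6% of all tested genes. Many ribosomal protein genes have near-identical processed pseudogenes, so how the authors' counting split their reads makes single values uncertain. In the fit without DMSO replicate 1 only 5 subunits were called and without DMSO replicate 2 there were 30, while the median change stayed at 0.44 and 0.55.

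The rise did not extend evenly to other parts of the protein-making machinery. Of 64 translation factors 6 rose and 9 fell (median -0.02). Eif4ebp1, which blocks cap-dependent initiation until mTOR phosphorylates it, had 236 and 269 in NMDA libraries, against 116 and 108 in DMSO libraries (1.17 ± 0.15, adjusted p = 0.000998), both NMDA libraries lying above both DMSO libraries. Of 75 mitochondrial ribosomal proteins 16 rose and 8 fell (median 0.06), with Mrpl36 at 195 and 195 in NMDA libraries, against 96.1 and 102 in DMSO libraries (0.97 ± 0.15). Of 77 genes named as respiratory chain subunits 33 rose and 2 fell (median 0.22). One of the 2, Cox4nb, shares the root of its symbol with complex IV but is not a subunit. Uqcr11, a small subunit of complex III, had 1363 and 1286 in NMDA libraries, against 809 and 940.0 in DMSO libraries (0.60 ± 0.10) and Cox6b2, a complex IV subunit best known from testis, 499.5 and 463 in NMDA libraries, against 291 and 268 in DMSO libraries (0.78 ± 0.11). Proteasome genes gave 10 rises and 4 falls of 48 (median 0.10). As shares, 9.38% of translation factors, 21.3% of mitochondrial ribosomal proteins, 42.9% of the respiratory chain and 20.8% of proteasome genes rose. Of all tested genes 20.5% rose, so the mitochondrial ribosomal and proteasome shares were near that of all genes. The falls were 14.1%, 10.7%, 2.60% and 8.33% in the same order, beside 21.5% of all tested genes. Over the 3 libraries without DMSO replicate 1, the rises were 1 for translation factors, 1 for mitochondrial ribosomal proteins, 2 for the respiratory chain and 0 for the proteasome by limma, and the falls 0 in each of the 4 lists. Without DMSO replicate 2 the rises were 1, 7, 14 and 1 for the same lists, and the falls 1, 0, 0 and 0. With NMDA replicate 1 left out the translation factors had 13 rises, the mitochondrial list 10, and the respiratory chain 5 falls. Without NMDA replicate 2 there were 4 rises of translation factors, 10 rises and 3 falls of mitochondrial ribosomal proteins, 1 fall in the respiratory chain and 6 proteasome rises. Quantile normalisation gave 11 rises and 8 falls of translation factors and 17 rises and 3 falls of proteasome genes. DESeq2 gave 9 rises and 3 falls of mitochondrial ribosomal proteins and 6 proteasome rises. The respiratory chain had 1 fall with edgeR, DESeq2, quantile normalisation or no filter.

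Zinc finger genes fell more often than they rose. Among 331 tested genes with a Zfp symbol 150 fell and 21 rose (median -0.35), beside 21.5% of all tested genes that fell. Many of these encode KRAB zinc finger repressors that silence transposable elements, although the symbol covers other proteins too. Zfp60 had 473 and 431 in NMDA libraries, against 1163 and 1092 in DMSO libraries (-1.32 ± 0.10, adjusted p = 0.000565) and Zfp606 had 385 and 382 in NMDA libraries, against 790.0 and 814 in DMSO libraries (-1.06 ± 0.09, adjusted p = 0.000685). Zfp318 had 1556 and 1481 in NMDA libraries, against 2894 and 2919.5 in DMSO libraries (-0.94 ± 0.08, adjusted p = 0.000565). The NMDA libraries were lowest in each of these 3. Those that rose included Zfp219, at 590.0 and 615 in NMDA libraries, against 311 and 360.4 in DMSO libraries (0.85 ± 0.11), and Zfp367, at 368 and 436 in NMDA libraries, against 217 and 231 in DMSO libraries (0.84 ± 0.13). Both NMDA libraries were under both DMSO libraries in 223 of the 331 genes and above them in 47, beside 37.8% and 36.6% of all tested genes. Zinc finger genes of 1 cluster can share nearly identical exons, so their reads may be split between copies. Without DMSO replicate 1 there were 82 falls and 8 rises, without DMSO replicate 2 there were 8 rises, and without NMDA replicate 2 there were 14. DESeq2 called 11 rises.

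Ubiquitin-specific proteases, which take ubiquitin off proteins, showed 23 falls and no rise among 47 (median -0.26). Usp1, which acts in DNA repair, had 893 and 970.3 in NMDA libraries, against 1612 and 1744 in DMSO libraries (-0.85 ± 0.09), Usp33 had 2339.6 and 2252 in NMDA libraries, against 3585 and 3521 in DMSO libraries (-0.63 ± 0.08) and Usp34 had 2835 and 2624 in NMDA libraries, against 4324 and 4207 in DMSO libraries (-0.64 ± 0.08). All of these were lower in both NMDA libraries. Of 51 histone methyltransferases and demethylases 25 fell and 3 rose (median -0.27). Setd2, the methyltransferase that marks transcribed gene bodies, had 2137 and 2244 in NMDA libraries, against 4277 and 4215 in DMSO libraries (-0.96 ± 0.08), and Setdb1, which KRAB zinc finger proteins bring to chromatin through a corepressor, had 1107 and 1085 in NMDA libraries, against 1743 and 1718 in DMSO libraries (-0.66 ± 0.08). Ash1l had 1845 and 1841 in NMDA libraries, against 2907 and 2785 in DMSO libraries (-0.63 ± 0.08), while Setd7 had 492 and 563 in NMDA libraries, against 321 and 295 in DMSO libraries (0.77 ± 0.12). In the DNA methylation group 4 of 18 rose (22.2%) and 5 fell (27.8%; median 0.01), near the 20.5% and 21.5% of all tested genes, while the falls were 48.9% of the ubiquitin-specific proteases and 49.0% of the histone enzymes. Uhrf1, which maintains methylation at replication, had 413 and 500.4 in NMDA libraries, against 266 and 286 in DMSO libraries (0.72 ± 0.13). The largest adjusted p of the genes named here was 0.00328. With DMSO replicate 1 left out, the falls numbered 6 for the proteases, 9 for the histone enzymes and 2 for the DNA methylation group, whose rises were 1, and without DMSO replicate 2 they were 14, 17 and 2. Without NMDA replicate 1 the histone enzymes had 6 rises, and without NMDA replicate 2 the DNA methylation group had 1. The proteases had 2 rises without NMDA replicate 1. The DNA methylation group had 3 rises and 2 falls with quantile normalisation and 2 rises and 4 falls with DESeq2.

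Splicing factor genes had 16 rises and 18 falls of 73 (median -0.07), which is 21.9% and 24.7%, near the 20.5% and 21.5% of all tested genes. The rises include small core proteins of the spliceosome such as Snrpg, at 946 and 1158 in NMDA libraries, against 635 and 673 in DMSO libraries (0.68 ± 0.11, adjusted p = 0.00252). Serine and arginine-rich regulators include Srsf7, at 2299 and 2508 in NMDA libraries, against 3713 and 3656 in DMSO libraries (-0.62 ± 0.08, adjusted p = 0.00121). The groups did not overlap in either gene. When DMSO replicate 1 was left out, there was 1 rise and 1 fall, without DMSO replicate 2 there were 3 and 2, and without NMDA replicate 2 there were 10 rises. Quantile normalisation gave 16 rises and 12 falls. Histone genes had 10 rises and 1 fall among the 16 tested (median 0.39), while 63 others were under the minimum. Hist1h2bc had 218 and 282 in NMDA libraries, against 121 and 140.1 in DMSO libraries (0.92 ± 0.17, adjusted p = 0.00364). Most histone genes of the replication type lack a poly(A) tail and are near-identical copies, so their counts are uncertain. Leaving out DMSO replicate 1, there were 2 histone rises and without DMSO replicate 2 there were 5.

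**Figure D3:**
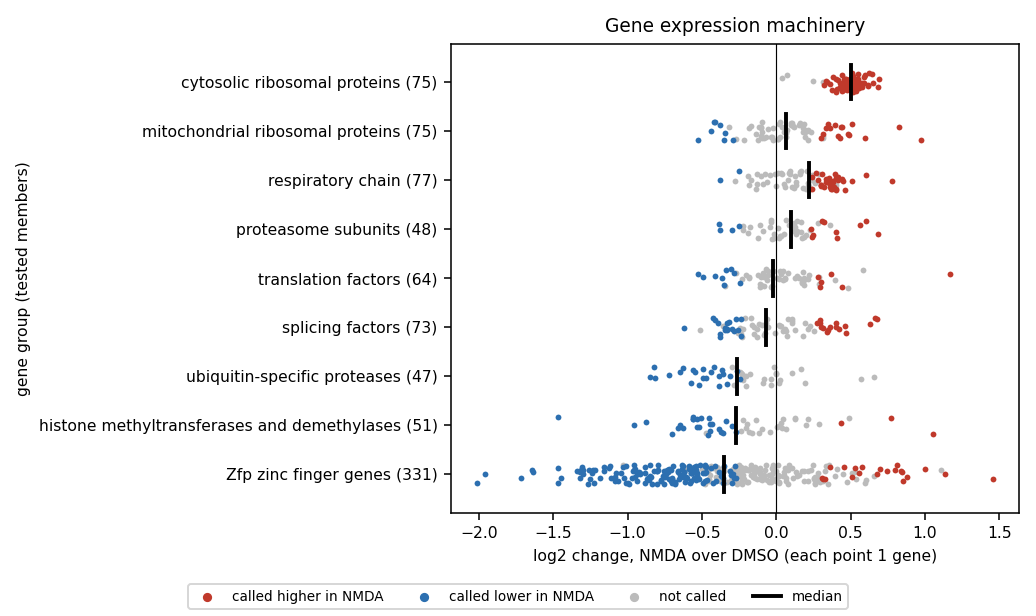
Log2 change after NMDA (NMDA over DMSO, x axis) of every tested gene in 9 groups of the gene expression machinery (y axis, number tested in brackets), 1 point per gene, red for called higher in NMDA, blue for called lower and grey for not called, with a black bar at the median. Cytosolic ribosomal proteins centre on 0.50 with no blue point, while Zfp genes centre on -0.35, histone methyltransferases and demethylases on -0.27 and ubiquitin-specific proteases on -0.26.

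Many genes of the extracellular matrix rose. Of 37 tested collagens 25 rose and 2 fell (median 0.95), and their summed level was 1.36% and 1.89% of normalised counts in the NMDA libraries, against 0.737% and 0.704% in the DMSO libraries. Col6a2, of a microfibrillar collagen, had 7099.6 and 7784 in NMDA libraries, against 3532 and 3008 in DMSO libraries (1.19 ± 0.10), and Col18a1, of a basement membrane collagen, had 5662 and 5586 in NMDA libraries, against 2916 and 2393 in DMSO libraries (1.09 ± 0.10). Of 34 laminins and integrins, proteins of the basement membrane and receptors for the matrix, 16 rose and none fell (median 0.56). Lama4 had 609 and 704 in NMDA libraries, against 289 and 263 in DMSO libraries (1.24 ± 0.12) and Itgb1 6766 and 8080.1 in NMDA libraries, against 3756 and 3593 in DMSO libraries (1.01 ± 0.10). The NMDA libraries were the higher pair in each. Matrix proteases and their inhibitors had 20 rises and 3 falls of 44 (median 0.37). Mmp2, a gelatinase, had 6049.6 and 6379 in NMDA libraries, against 2942 and 2639 in DMSO libraries (1.16 ± 0.09), its inhibitor family member Timp3 3427 and 3588 in NMDA libraries, against 1989 and 1909 in DMSO libraries (0.85 ± 0.08), and Adam17, which sheds membrane ligands and receptors, 697 and 752 in NMDA libraries, against 352 and 334 in DMSO libraries (1.08 ± 0.10). The rises were 67.6% of collagens, 47.1% of laminins and integrins and 45.5% of the protease list, beside 20.5% of all tested genes. Adjusted p was at most 0.000703 for the genes named here. The fibroblast markers, which rose in the same libraries (8 of 9, median 1.12), share 3 collagen genes with the first list. With NMDA replicate 1 left out, there were 6 protease falls, and without NMDA replicate 2 or either DMSO library there were 0 (3 before, by limma). Without either DMSO library there was 1 collagen fall, and without NMDA replicate 2 the laminins and integrins had 1 fall. DESeq2 called 1 protease fall.

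Targets of SRF and of YAP, both of which read tension in the actin cytoskeleton, mostly rose. Of 22 actin and contractile genes 17 rose and none fell (median 0.74), and of 18 YAP targets and matricellular genes 14 rose and none fell (median 0.99). The rises were 77.3% and 77.8%, beside 20.5% of all tested genes. Cald1, caldesmon, had 2734 and 2983 in NMDA libraries, against 1599 and 1461 in DMSO libraries (0.90 ± 0.09) and Tagln, transgelin, 536 and 539 in NMDA libraries, against 288 and 273 in DMSO libraries (0.94 ± 0.10). Ctgf had 3010.3 and 4491 in NMDA libraries, against 871 and 784 in DMSO libraries (2.15 ± 0.16), Tnc, tenascin C, had 6651 and 6722 in NMDA libraries, against 3504 and 3270.4 in DMSO libraries (0.98 ± 0.08) and the receptor tyrosine kinase gene Axl had 1427 and 1572 in NMDA libraries, against 801 and 704 in DMSO libraries (1.00 ± 0.10). In all 5 genes both NMDA libraries were above both DMSO libraries, with adjusted p values of at most 0.000784. In the fit without DMSO replicate 1 the SRF list had 10 rises and without DMSO replicate 2 it had 11.

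Genes of developmental signalling showed mostly rises. Of 34 Wnt ligands, receptors and antagonists 22 rose and 1 fell (median 0.90). Fzd7 had 846 and 1036 in NMDA libraries, against 462 and 444 in DMSO libraries (1.05 ± 0.12) and Fzd2 had 500.4 and 588 in NMDA libraries, against 268 and 239.5 in DMSO libraries (1.10 ± 0.12), both Wnt receptors, and the antagonist Sfrp1 had 3757 and 3883 in NMDA libraries, against 2425 and 2269 in DMSO libraries (0.70 ± 0.08). Of 26 Notch pathway genes 12 rose and 1 fell (median 0.62), with the ligand Dll1 at 385 and 433 in NMDA libraries, against 171 and 162 in DMSO libraries (1.29 ± 0.13) and the receptor Notch1 at 1681 and 1833 in NMDA libraries, against 986 and 883 in DMSO libraries (0.91 ± 0.09). The NMDA libraries held the 2 highest values in each of these genes. Of 45 BMP and TGF-beta genes 23 rose and 8 fell (median 0.53). Ltbp4, which stores latent TGF-beta in the matrix, had 1757 and 2053 in NMDA libraries, against 879.8 and 908 in DMSO libraries (1.09 ± 0.10), whereas Smad2, which carries the TGF-beta signal to the nucleus, had 823 and 777 in NMDA libraries, against 1239.8 and 1206 in DMSO libraries (-0.61 ± 0.09). Among 10 proneural and related bHLH factors 5 rose and 1 fell (median 0.84), and Olig2, of the oligodendrocyte lineage, had 79.9 and 101 in NMDA libraries, against 36.8 and 29.9 in DMSO libraries (1.41 ± 0.23). Markers of that lineage did not move as 1 group, with 3 rises and 1 fall of 6 tested (median 0.43). As shares, 64.7% of the Wnt, 46.2% of the Notch, 51.1% of the BMP and TGF-beta and 50% of the proneural list rose. These stand beside 20.5% of all tested genes that rose. The BMP and TGF-beta falls were 17.8%, near the 21.5% of all tested genes that fell. Limma adjusted p values of the genes named here did not exceed 0.00254. Progenitor and fibroblast markers rose in the same libraries, as given above. Over the 3 libraries without DMSO replicate 1, the rises were 12 for Wnt, 5 for Notch, 11 for BMP and TGF-beta and 2 for the proneural list, and the falls 0, 0, 1 and 0. With DMSO replicate 2 left out, BMP and TGF-beta genes had 14 rises and 3 falls and Notch genes 8 rises, with no falls in the Wnt and Notch lists.

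Axon guidance genes divided, with 24 rises and 17 falls of 65 (median 0.12). The rises were 36.9%, beside 20.5% of all tested genes, and the falls 26.2%, near the 21.5% of all tested genes. Nrp1, a semaphorin co-receptor, had 2405 and 2392 in NMDA libraries, against 1519 and 1334 in DMSO libraries (0.75 ± 0.09), Efnb1, an ephrin, had 651 and 768 in NMDA libraries, against 382 and 366 in DMSO libraries (0.92 ± 0.11) and Sema3d, a secreted semaphorin, had 538 and 703 in NMDA libraries, against 291 and 299 in DMSO libraries (1.06 ± 0.14). Unc5d, a netrin receptor, had 665 and 511 in NMDA libraries, against 1301 and 1207 in DMSO libraries (-1.10 ± 0.13) and Sema3a, a repellent of axons, had 1517 and 1348 in NMDA libraries, against 2539.8 and 2319.6 in DMSO libraries (-0.76 ± 0.09). Within 1 gene family the directions therefore differed, as for Sema3d and Sema3a. The adjusted p values were 0.00111 or less. Leaving out DMSO replicate 1 gave 15 rises and 2 falls, and without DMSO replicate 2 there were 15 and 8.

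Motor proteins of microtubules moved both ways. Of 34 kinesins 14 rose and 13 fell (median 0.14). These were 41.2% and 38.2%, beside 20.5% of all tested genes that rose and 21.5% that fell. Kif11, which pushes spindle poles apart, had 333 and 426 in NMDA libraries, against 196 and 222 in DMSO libraries (0.85 ± 0.15), Kif23, which acts in cytokinesis, had 334 and 466 in NMDA libraries, against 219 and 177 in DMSO libraries (1.00 ± 0.18) and Kif20b, also of cytokinesis, had 249 and 293 in NMDA libraries, against 168 and 148 in DMSO libraries (0.77 ± 0.14). Kif2a, which shortens microtubules and trims axon branches, had 3141 and 2895 in NMDA libraries, against 4266 and 4461 in DMSO libraries (-0.53 ± 0.08), and Kif3b, a subunit of an anterograde transport motor, had 2509.9 and 2011 in NMDA libraries, against 3508 and 3421 in DMSO libraries (-0.62 ± 0.11). Among cell cycle genes 25 of 32 rose and none fell (median 0.78), with Ccnd1, cyclin D1, at 814 and 788 in NMDA libraries, against 458 and 439 in DMSO libraries (0.83 ± 0.09) and Aurkb, a mitotic kinase, at 250.2 and 296 in NMDA libraries, against 120.3 and 115 in DMSO libraries (1.20 ± 0.15). Every gene named here kept the groups apart, with adjusted p of at most 0.00407. Progenitor markers rose in the same libraries (8 of 8, median 0.93). Of 26 neurofilament and neuronal cytoskeleton genes 13 fell and 3 rose (median -0.31). These falls were 50%, and the cell cycle rises given before were 78.1%. Mtap1a, a microtubule-associated protein of mature neurites, had 5693 and 4609 in NMDA libraries, against 10436 and 9992 in DMSO libraries (-0.995 ± 0.11), and Ank3, the organiser of the axon initial segment, had 2009 and 1890.2 in NMDA libraries, against 3600.0 and 3139.8 in DMSO libraries (-0.79 ± 0.09). With DMSO replicate 1 left out, there were 4 kinesin rises, 3 kinesin falls, 14 cell cycle rises and 5 cytoskeleton falls. Without DMSO replicate 2 there were 7 kinesin rises, 4 kinesin falls and 5 cytoskeleton falls. With NMDA replicate 2 left out, there were 8 kinesin rises and 5 cytoskeleton rises. The cytoskeleton rises were 1 without DMSO replicate 1 and 2 without DMSO replicate 2.

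Genes that move calcium across membranes fell more often than they rose. Of 26 calcium pumps, exchangers and store channels 13 fell and 2 rose (median -0.27). These were 50% and 7.69%, beside 21.5% of all tested genes that fell and 20.5% that rose. The sodium and calcium exchangers Slc8a1, at 6674 and 5912 in NMDA libraries, against 12091 and 11854 in DMSO libraries (-0.93 ± 0.09), and Slc8a3, at 436 and 347 in NMDA libraries, against 764 and 708 in DMSO libraries (-0.92 ± 0.13), were both among the falls. Slc24a2, an exchanger that also moves potassium, had 769.9 and 532 in NMDA libraries, against 1523 and 1304 in DMSO libraries (-1.14 ± 0.16), and Ryr2, a calcium release channel, had 1409.9 and 1543 in NMDA libraries, against 2156 and 2181 in DMSO libraries (-0.56 ± 0.08). Itpr1, the neuronal inositol trisphosphate receptor, went the other way, at 842 and 1073 in NMDA libraries, against 557 and 593 in DMSO libraries (0.73 ± 0.12). None of these genes had overlapping groups, and their adjusted p values were 0.00276 or less. When DMSO replicate 1 was left out, there were 8 falls, and 1 rise was left without DMSO replicate 1, DMSO replicate 2 or NMDA replicate 2.

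Voltage-gated channels and synapse genes fell in part, and few rose. Of 67 potassium channel genes 21 fell and 3 rose (median -0.31), and of 32 sodium and calcium channel genes 13 fell (median -0.29). The falls were 31.3% and 40.6%, beside 21.5% of all tested genes. The potassium channel rises were 4.48%, beside 20.5% of all tested genes. Kcnma1, the large-conductance calcium-activated channel, had 727 and 560.1 in NMDA libraries, against 1327 and 1165 in DMSO libraries (-0.96 ± 0.13), and Kcnd2, which carries the A-type current of dendrites, had 2159 and 2093 in NMDA libraries, against 3148 and 3076 in DMSO libraries (-0.55 ± 0.08). Kcnmb4, the neuronal partner subunit of Kcnma1, had 489 and 542 in NMDA libraries, against 302 and 326 in DMSO libraries (0.71 ± 0.11), so this pair moved in opposite directions. Scn8a, the sodium channel of the axon initial segment, had 1920.0 and 1677 in NMDA libraries, against 3654 and 3336 in DMSO libraries (-0.96 ± 0.10), and Cacna1b, the N-type calcium channel of nerve terminals, had 1952 and 1723 in NMDA libraries, against 3522 and 3299 in DMSO libraries (-0.89 ± 0.09). Both NMDA libraries were under both DMSO libraries in the 4 that fell. Adjusted p was at most 0.00197. Leaving out DMSO replicate 1, there were 7 falls in each list and 2 potassium rises. With DMSO replicate 2 left out, there were 14 potassium falls and 2 rises, and without NMDA replicate 1 there were 5 potassium rises. Quantile normalisation gave 2 rises among sodium and calcium channels.

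At the synapse, 18 of 32 vesicle and active zone genes fell and none rose (median -0.44), and 17 of 30 postsynaptic and adhesion genes fell while 1 rose (median -0.43). Syt2, a fast calcium sensor for release, had 691 and 528 in NMDA libraries, against 1893 and 1749.5 in DMSO libraries (-1.59 ± 0.13) and Vamp1, a vesicle SNARE, had 1588 and 1461 in NMDA libraries, against 2606 and 2884 in DMSO libraries (-0.85 ± 0.09). Rims2, an active zone scaffold, had 545 and 496 in NMDA libraries, against 1088 and 971 in DMSO libraries (-0.98 ± 0.10). The postsynaptic adhesion gene Lrrtm4 had 175 and 172 in NMDA libraries, against 323 and 325 in DMSO libraries (-0.90 ± 0.12) and the scaffold gene Dlg3 had 1102 and 1028 in NMDA libraries, against 1621 and 1626 in DMSO libraries (-0.61 ± 0.08). In these 5 genes NMDA replicate 2 had the lowest value of the 4 libraries, and the groups did not overlap. Metabotropic glutamate receptors had 5 falls of 7 (median -0.44), AMPA and kainate receptors 5 of 9 (median -0.31) and GABA receptors 3 of 15 with 1 rise (median -0.26). The GABA receptor falls are 20%, near the 21.5% of all tested genes that fell. Grm8 had 254 and 217 in NMDA libraries, against 467 and 434 in DMSO libraries (-0.94 ± 0.12) and Gabbr2, the signalling subunit of the GABA-B receptor, 2035 and 1666 in NMDA libraries, against 2728 and 2868 in DMSO libraries (-0.60 ± 0.11). Adjusted p values of the named genes were 0.00304 or less. In the same libraries 7 of 15 pan-neuronal markers fell and 1 rose (median -0.33). In the fit without DMSO replicate 1 the falls were 11 for vesicle genes, 9 for postsynaptic genes, 2 for metabotropic, 0 for AMPA and kainate and 1 for GABA receptors, and 3 for the pan-neuronal markers. Without DMSO replicate 2 there were 12 vesicle gene falls, 3 metabotropic, 1 AMPA and kainate, 1 GABA receptor and 3 pan-neuronal. Without NMDA replicate 1 there were 30 vesicle gene falls and 7 GABA receptor falls, and without NMDA replicate 2 there were 3 metabotropic, 3 AMPA and kainate and 2 GABA receptor falls. The single rises were also unsteady: that of the GABA receptors was lost without either NMDA library, without DMSO replicate 2, and with DESeq2 or quantile normalisation. The postsynaptic one was lost without either DMSO library, and there were 2 without NMDA replicate 1. The pan-neuronal one was lost with DESeq2, without NMDA replicate 1 and without either DMSO library. Quantile normalisation gave 3 falls and 1 rise of AMPA and kainate receptors.

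**Figure D4:**
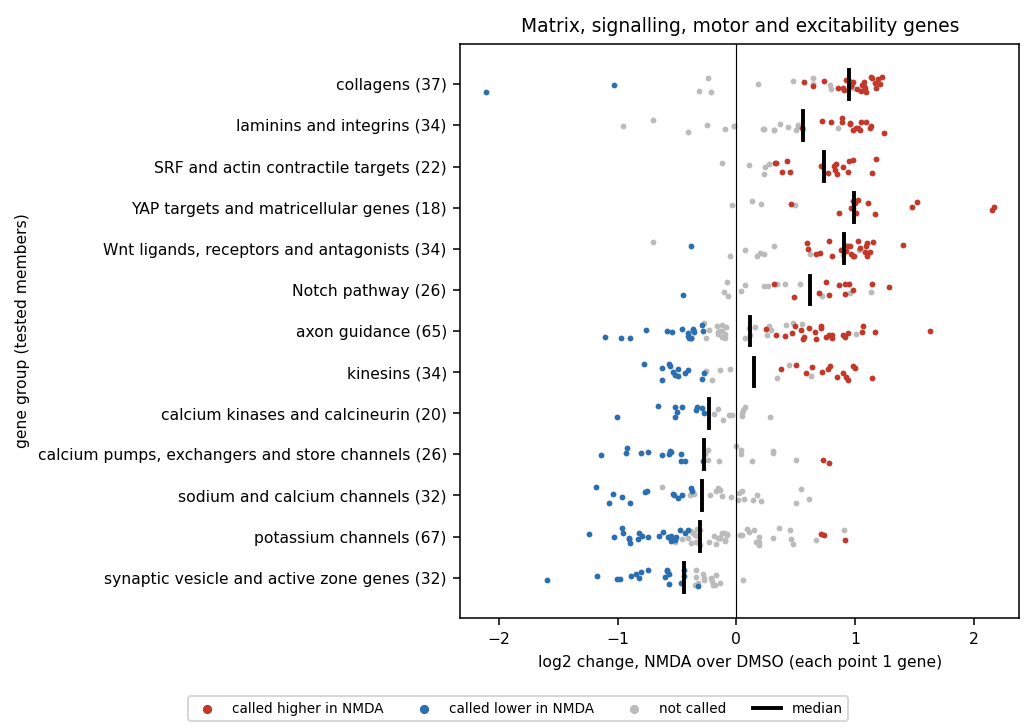
Log2 change after NMDA (NMDA over DMSO, x axis) of every tested gene in 13 groups (y axis, number tested in brackets) from the matrix at the top to the synapse at the bottom, 1 point per gene, red for called higher in NMDA, blue for called lower and grey for not called, with a black bar at the median. Medians run from 0.95 for collagens to -0.44 for vesicle and active zone genes, while axon guidance genes and kinesins hold many points of both colours.

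Genes of the response to damage and inflammation rose in part. Of 25 p53 targets 16 rose and 1 fell (median 0.56). Rps27l, a direct p53 target of the ribosomal protein family, had 799.8 and 958 in NMDA libraries, against 443 and 429 in DMSO libraries (1.00 ± 0.11), Phlda3, an inhibitor of Akt, had 729 and 749 in NMDA libraries, against 426 and 412 in DMSO libraries (0.82 ± 0.09) and Pmaip1, which encodes the death protein Noxa, had 681 and 778 in NMDA libraries, against 364 and 383 in DMSO libraries (0.96 ± 0.11). Sesn2, another gene of the list, had 759 and 656 in NMDA libraries, against 1162 and 1039 in DMSO libraries (-0.64 ± 0.11). NMDA and DMSO libraries were apart in each. Among 32 Bcl2 family, caspase and related genes 9 rose and 2 fell (median 0.18), while DESeq2 and quantile normalisation each gave 6 rises. Bcl2l2, a survival gene, had 782 and 719 in NMDA libraries, against 513 and 463 in DMSO libraries (0.62 ± 0.10) and the proapoptotic Bax had 1264 and 1252 in NMDA libraries, against 856 and 859.8 in DMSO libraries (0.55 ± 0.08), so both kinds rose. Of 21 NF-kappaB and inflammatory genes 14 rose and none fell (median 0.98), with Nfkbia, the inhibitor that NF-kappaB itself switches on, at 1011 and 1337 in NMDA libraries, against 720.0 and 709 in DMSO libraries (0.70 ± 0.13). The chemokine Cxcl12 had 433 and 553 in NMDA libraries, against 224 and 232 in DMSO libraries (1.10 ± 0.14). Of 17 NRF2 genes 6 rose (median 0.12), among them Gstm1, a glutathione transferase, at 877 and 974 in NMDA libraries, against 485 and 507 in DMSO libraries (0.90 ± 0.10). As shares, 64% of p53 targets, 28.1% of the Bcl2 list, 66.7% of the NF-kappaB list and 35.3% of NRF2 genes rose. The falls were 4%, 6.25%, 0% and 0% in the same order. These stand beside 20.5% of all tested genes that rose and 21.5% that fell. Adjusted p was no more than 0.0037 for the genes named. Over the 3 libraries without DMSO replicate 1, there were 10 p53 rises, 4 rises in the Bcl2 list, 4 in the NF-kappaB list and 4 among NRF2 genes, and without DMSO replicate 2 there were 4 Bcl2 list rises and 8 in the NF-kappaB list. Without NMDA replicate 2 the NF-kappaB list had 8 rises and the Bcl2 list 6 rises and 1 fall, as against 2 falls with all libraries. The Bcl2 list also had 1 fall without either DMSO library, and the p53 list 2 falls without NMDA replicate 2.

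Protein folding genes were called in both directions, with shares of rises not far from the 20.5% of all tested genes. Of 43 heat shock chaperones 10 rose (23.3%) and 5 fell (11.6%; median 0.12). Cryab, a small heat shock protein, had 162 and 168 in NMDA libraries, against 81.7 and 82.6 in DMSO libraries (0.99 ± 0.16), while Hspa12a, a distant Hsp70 relative of neurons, had 2709 and 2349 in NMDA libraries, against 4081 and 4112 in DMSO libraries (-0.70 ± 0.09). Among 28 genes of the unfolded protein and integrated stress responses 8 rose (28.6%) and 6 fell (21.4%, beside 21.5% of all tested genes; median 0.12). Xbp1, a factor of the unfolded protein response, had 799.8 and 831 in NMDA libraries, against 1379.8 and 1156 in DMSO libraries (-0.63 ± 0.10), Herpud1 had 1949 and 1717 in NMDA libraries, against 3513 and 3089.6 in DMSO libraries (-0.85 ± 0.10) and Chac1, a glutathione-degrading enzyme, had 172 and 125 in NMDA libraries, against 383 and 278 in DMSO libraries (-1.15 ± 0.20). Ppp1r15a, which restarts translation after stress, had 1010.5 and 1156 in NMDA libraries, against 757 and 699 in DMSO libraries (0.57 ± 0.10). In these 6 genes the libraries of the 2 groups did not overlap, with adjusted p of at most 0.0031. Without DMSO replicate 1 the chaperones had 5 rises and 1 fall and the stress list 3 and 4. With DMSO replicate 2 left out, there were 3 chaperone falls and 2 rises and 4 falls of stress genes.

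Metabolic and clock genes gave few rises. Of the glycolysis list 10.3% rose and 10.3% fell, of the cholesterol list 8.33% and 33.3%, and of the clock list 9.52% and 28.6%. These stand beside 20.5% of all tested genes that rose and 21.5% that fell. Of 24 cholesterol synthesis genes 8 fell and 2 rose (median -0.16). Lss, lanosterol synthase, had 3692 and 3046 in NMDA libraries, against 7626 and 6656 in DMSO libraries (-1.09 ± 0.11), whereas Srebf1, a regulator of lipid synthesis, had 2801 and 2587 in NMDA libraries, against 1682 and 1569 in DMSO libraries (0.73 ± 0.09). Of 29 glycolysis and hypoxia genes 3 rose and 3 fell (median 0.05), and Slc2a1, a glucose transporter, had 458 and 577 in NMDA libraries, against 271 and 301 in DMSO libraries (0.85 ± 0.14). In the clock, 2 of 21 genes rose and 6 fell (median -0.15). Per1, an immediate early gene of the clock, had 1676 and 1673 in NMDA libraries, against 1155 and 941 in DMSO libraries (0.68 ± 0.11), and Nr1d2, a repressor of its transcription loop, had 1327 and 1628 in NMDA libraries, against 2336 and 2485 in DMSO libraries (-0.71 ± 0.11). Among neuropeptides and secreted factors 7 of 21 rose and none fell (median 0.42). Nppc, C-type natriuretic peptide, had 246 and 189.9 in NMDA libraries, against 101 and 93.4 in DMSO libraries (1.14 ± 0.17), Npy had 255 and 242 in NMDA libraries, against 143 and 137 in DMSO libraries (0.83 ± 0.13) and Vgf had 1099 and 1077 in NMDA libraries, against 412 and 637 in DMSO libraries (1.09 ± 0.18). The 2 groups stood apart in all these genes, with adjusted p of at most 0.00227. With DMSO replicate 1 left out, there were 1 cholesterol fall, 1 rise and 0 falls for glycolysis, and 1 rise and 2 falls for the clock. Without DMSO replicate 2 there were 2 cholesterol falls, 1 rise and 0 falls for glycolysis, and 1 rise and 3 falls for the clock. With NMDA replicate 1 left out, glycolysis had 5 rises and 5 falls. With NMDA replicate 2 left out, it had 1 rise and 2 falls, the clock had 1 rise and the cholesterol list 5 falls. A single neuropeptide gene fell without NMDA replicate 1. Glycolysis genes and clock genes had 1 rise each with DESeq2, and the clock had 3 rises and 5 falls with quantile normalisation.

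The 2 NMDA libraries did not move equally far. NMDA replicate 2 was above NMDA replicate 1 in 2249 of the 2845 called rises (79.05%) and below it in 2257 of the 2979 called falls (75.76%). The median log2 ratio to the mean of the DMSO libraries was 0.57 in NMDA replicate 1 and 0.77 in NMDA replicate 2 for called rises, and -0.45 and -0.56 for called falls. Some groups showed this gap and others hardly did. Collagens stood at 0.77 in replicate 1 and 1.10 in replicate 2, fibroblast markers at 0.87 and 1.39, cytosolic ribosomal proteins at 0.36 and 0.62, and vesicle and active zone genes at -0.30 and -0.56. Zfp genes stood at -0.33 and -0.37, ubiquitin-specific proteases at -0.27 and -0.30, histone methyltransferases and demethylases at -0.297 and -0.292 and p53 targets at 0.50 and 0.55. In DMSO replicates 1 and 2, collagens and fibroblast markers each stood at 0.07 and -0.07, the reverse order of the NMDA replicates. Ribosomal proteins stood there at -0.06 and 0.06, and vesicle and active zone genes at 0.06 and -0.06, the same order as with NMDA. The part of the fibroblast and progenitor markers in the first kind of group was not tested.

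**Figure D5:**
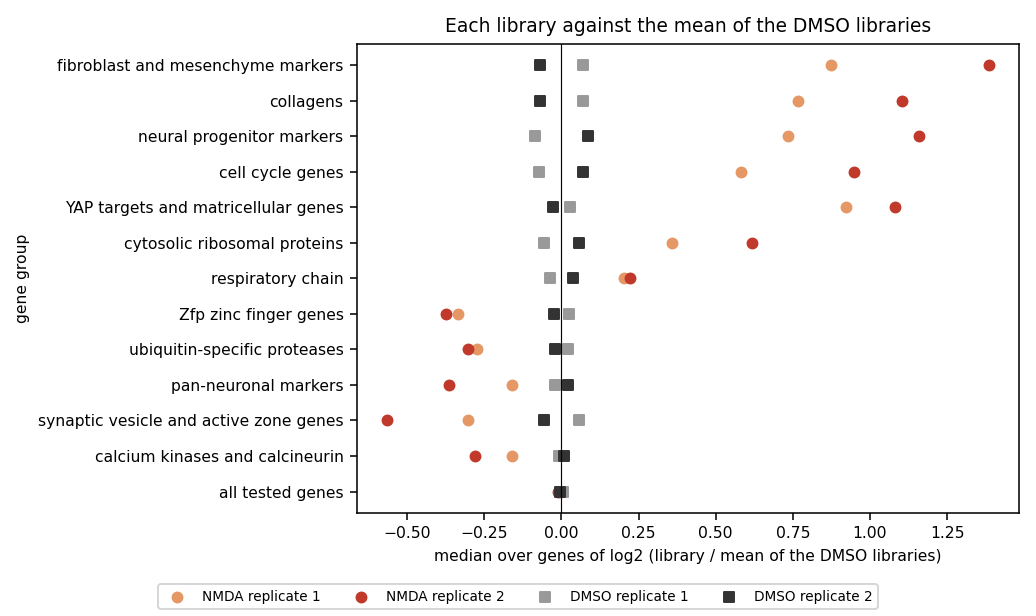
Median over the tested genes of each group of the log2 ratio of 1 library to the mean of the 2 DMSO libraries (x axis), for 12 gene groups and all tested genes (y axis), with NMDA libraries as circles and DMSO libraries as squares. Fibroblast markers (0.87 and 1.39) and cytosolic ribosomal proteins (0.36 and 0.62) differ between the 2 NMDA libraries, while Zfp genes (-0.33 and -0.37) nearly coincide.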

How the data were processed

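The RNA values were deposited by the authors as normalised read counts, 1 column per library, and are treated as a signal and not as raw counts. Per the submitters' processing notes, TopHat, Bowtie, HTSeq and DESeq were used with build mm9. The sources used here give neither their roles and versions nor the annotation and strandedness, so reads of overlapping or antisense genes cannot be told apart. Each deposited signal column rose in steps of 0.878 to 1.20 per read, and whole reads were recovered for 100% of values at a tolerance of 0.0075 reads. The recovered totals give the depth.

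Groups came from the sample titles. Genes with a mean of at least 10 were tested by limma-trend with version 3.58.1 of limma under R 4.3.3, after log2(value + 1). The model had group alone, tests were 2-sided, and p-values were adjusted by Benjamini-Hochberg over all 13888 with a threshold of 0.05. Log2 changes are NMDA over DMSO with standard errors, and the added 1 makes the changes of low genes look smaller. Alternatives were pseudocounts of 0.5 and 10, a mean of at least 50, no filter, quantile normalisation, a replicate block, leaving out each library, and edgeR (4.0.16) and DESeq2 (1.42.0) on recovered reads. The fit was checked on simulated data.

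The comparison, its 59 gene lists and its marker lists were chosen with earlier results of these data known, so counts in lists are descriptions. The genes named were the top 25 called changes each way at a mean of 50 or more and the top 15 each way at 1000 or more. Both sets left out predicted gene models and genes whose groups overlapped, so the separation of these genes was fixed by the choice. Also named were the 10 highest means, and per list up to 4 called genes each way by smallest p (else the 2 of highest mean). Not all are printed. Names and promoters came from tables of GRCm38.p6, where 19767 symbols were current, 1974 older and 196 absent.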

Additional observations from a re-analysis of the deposited data

How the results depend on the processing

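No gene was called in opposite directions in any of the 12 alternative fits. With quantile normalisation, which makes the libraries' distributions equal, 323 genes rose by at least 2-fold, and with a pseudocount of 10 there were 319, as against 495. Leaving out 1 library at a time gave 1984 to 6367 calls, of which 1069 to 3033 rises and 915 to 3334 falls, and 247 to 956 rises and 135 to 314 falls of at least 2-fold. DESeq2 called 2249 rises and 2315 falls and left 808 adjusted p values undefined; edgeR called 2905 and 2877. A fit with the replicate number as a block called 3685 rises and 3782 falls. The labels do not say what the numbers mark and there are only 2 pairs, so whether they mark a shared batch is not known; across genes, the difference of replicate 1 from 2 correlated between the groups at r = 0.34. Counts by protein length were planned and not run, since no protein table was used here. In lists with no call in one direction with all 4 libraries, limma gave no gene an unadjusted p under 0.05 that way except 1 ubiquitin-specific protease and 2 sodium and calcium channel genes. There edgeR and DESeq2 made no call either, and edgeR added 1 AMPA or kainate subunit and 1 calcium kinase gene at that unadjusted level. Without 1 library those directions held at most 2 such genes, and directions that had lost all their calls held up to 8. With 2 libraries per group, a gene that missed the threshold is not shown to be unchanged.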

Other observations

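Grouping genes by the leading letters of their symbol, with predicted models left out, gave 64 roots of at least 20 tested genes. The largest shares of rises were in Rpl (86.7% of 45), Rps (72.1% of 43), Col (65.8% of 38), Cdc (41.9% of 31) and Kif (41.2% of 34), followed by Cox and H at 40% each. The root Rps also takes in ribosomal S6 kinases, which are no ribosomal proteins. The largest shares of falls were in Usp (48.9% of 47), Klhl (46.4% of 28), Zbtb (45.9% of 37), Vps (45.2% of 31), Zfp (44.9% of 334) and Arhgap (38.5% of 26). Of all tested genes 20.5% rose and 21.5% fell. Some roots were mixed, since 38.2% of Kif genes fell and 26.9% of Arhgap genes rose. Klhl genes encode substrate adaptors of a ubiquitin ligase, Zbtb genes zinc finger factors with a BTB domain, and Vps genes proteins of endosomal and lysosomal sorting. Among Klhl genes 13 fell and none rose (median log2 change -0.28), and among Vps genes 14 fell and 2 rose (median -0.24). Without DMSO replicate 1 the falls were 2 for Klhl, 2 for Vps, 7 for Zbtb, 6 for Usp, 5 for Arhgap and 82 for Zfp, and the rises 3 for Rpl, 3 for Rps, 7 for Cdc, 4 for Kif, 1 for Cox and 2 for H. Without DMSO replicate 2 the falls were 6 for Klhl, 6 for Vps, 9 for Zbtb, 14 for Usp and 5 for Arhgap, and the rises 15 for Rpl, 14 for Rps, 6 for Cdc, 7 for Kif, 2 for Cox and 6 for H. Without NMDA replicate 2 Vps had 8 falls and no rise, Kif had 8 rises, Cox had 5, and H had 8.

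Clustered protocadherins, which give neurons their surface identity, had 3 rises and 7 falls of 55 (median -0.05). These shares, 5.45% and 12.7%, were under the 20.5% and 21.5% of all tested genes that rose and fell. Their genes share exons, so counts may be split between them. Without NMDA replicate 1 there were 14 falls, without NMDA replicate 2 there were 2, without DMSO replicate 1 there were 1 rise and 0 falls (by limma), and without DMSO replicate 2 there were 1 and 1. DESeq2 called 2 falls.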
